A study of Mus musculus with 12 samples.

Results

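*Nav2* and *Prmt3* are neighbouring genes on mouse chromosome 7, and the accessible chromatin regions in and around them were followed in thymic invariant natural killer T (iNKT) cells with and without *Hivep3*. The regions were those of the deposited ATAC-seq table that overlap either gene body or the 10 kb on either side of it, which gave 45 of 63309 regions, 41 at *Nav2* (ENSMUSG00000052512.17, chr7:48908716-49610090, plus strand) and 4 at *Prmt3* (ENSMUSG00000030505.17, chr7:49778346-49858265, plus strand). The locus was chosen by measured values, namely because several of its regions were lower together in *Hivep3*-/- iNKT2 libraries than in C57BL/6 iNKT2 libraries. The comparison of genotypes in iNKT2 cells is therefore a description. Its regions past the thresholds are named to say which ones the choice rested on, with no p-value, and are no evidence for it, while iNKT1 and iNKT17 cells, which played no part in the choice, were tested. ATAC-seq marks open chromatin by letting a transposase insert sequencing adapters into it. There were 6 groups of 2 libraries, namely iNKT1, iNKT2 and iNKT17 cells of wild-type C57BL/6 mice and of Hivep3-/- mice on the C57BL/6 background, all untreated thymocytes of 8 to 9 weeks of age. The cells came from pooled thymi of each genotype, the sorted subsets were combined for the transposition, and the second sort that parted them again used ICOS and CD138 alone. The sample titles number mice, so the 2 libraries of a group were treated as its replicates, and a p-value measures the spread between such libraries.

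NAV2 (neuron navigator 2) belongs to a family of large microtubule-associated proteins known from axon outgrowth and cell migration, and PRMT3 is a cytosolic protein arginine methyltransferase whose best known substrate is ribosomal protein S2. HIVEP3 is a large zinc finger protein that binds κB-like DNA motifs. iNKT1, iNKT2 and iNKT17 cells are the mature thymic subsets that produce mainly IFN-γ, IL-4 and IL-17, respectively. A gene as long as *Nav2* has room for many intronic regulatory regions and for several alternative start sites, and accessibility inside its body says nothing by itself about which gene a region acts on, or about transcription, which was not measured in these libraries.

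Values are log2 normalised transposase insertions per kb, as deposited, and a region was taken as accessible in a group when its mean on the linear scale was at least 5. The number of insertions behind a value is unknown, since the normalization gave all libraries nearly the same sum. The number of distinct values up to the median of a library, which may grow with depth, ranged from 73 to 491 over the 12 libraries. The start-site regions of 5 of 5 marker genes were found for each subset, and their summed linear level followed the labels for iNKT17 (224–235.8 in iNKT17 and 14.7–19.2 in the other libraries) and iNKT1 cells (491.5–499.6, against 220.1–275.4 elsewhere). For the iNKT2 list it was 240.1–268.8 in iNKT2, 166.5–213.6 in iNKT1 and 128.2–151.9 in iNKT17 libraries. Of this list *Izumo1r*, *Il4* and *Slamf6* were highest in iNKT2 cells, but *Gata3* and *Ccr9* were not. Their C57BL/6 log2 means in iNKT1, iNKT2 and iNKT17 cells were 6.63, 6.51 and 6.36 for *Gata3* and 3.49, 3.33 and 3.57 for *Ccr9*. Of the lists for double-positive thymocytes, B cells and myeloid cells, 0 of 5, 1 of 4 (*Pax5*) and 1 of 4 genes (*Spi1*) had a start-site region at all. These were accessible in every group, with log2 means of 2.92 to 4.61 at *Pax5* and 4.18 to 5.29 at *Spi1*. Of the 21 regions of the *Hivep3* locus, 20, 18 and 12 were tested by limma in iNKT1, iNKT2 and iNKT17 cells. None was called, and 5, 3 and 5 had an unadjusted p under 0.05, so the targeted gene does not check the genotype labels. Counts at an unadjusted p, here and below, have no share over all tested regions beside them and are not read as results.

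Of the 45 regions, 32 lay in introns (71.1%), 10 within 1000 bp of an annotated start site (22.2%), 2 in exons (4.44%) and 1 between genes (2.22%). Over all regions of the table the shares were 32.3%, 38.1%, 6.77% and 22.8%. Positions are given as the distance of a region's centre from the annotated *Nav2* start. Sequences of 300 bases from 4 regions are shown on the plus strand of GRCm38.p6 (mm10), as RefSeq gives it. They are the regions with the 3 largest differences between genotypes in iNKT2 cells, each shown by its centre, and the most accessible start-site region, shown by the bases just before the annotated transcript start. Of these 3, the 185.1-kb region was far below the accessible level in iNKT2 cells of both genotypes (linear means of 0.5 in C57BL/6 and 0.1 in Hivep3-/-). Capitals mark matches, on either strand, to the 8 motifs described further on.
Nav2 intron, 492.1 kb, chr7:49400653-49400952: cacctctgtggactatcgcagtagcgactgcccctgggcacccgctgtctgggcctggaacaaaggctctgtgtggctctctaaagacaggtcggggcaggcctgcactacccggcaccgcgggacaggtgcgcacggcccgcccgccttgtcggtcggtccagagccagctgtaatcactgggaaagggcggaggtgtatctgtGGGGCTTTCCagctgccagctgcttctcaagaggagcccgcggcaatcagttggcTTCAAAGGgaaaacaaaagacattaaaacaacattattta
Nav2 intron and exon edge, 489.1 kb, chr7:49397711-49398010: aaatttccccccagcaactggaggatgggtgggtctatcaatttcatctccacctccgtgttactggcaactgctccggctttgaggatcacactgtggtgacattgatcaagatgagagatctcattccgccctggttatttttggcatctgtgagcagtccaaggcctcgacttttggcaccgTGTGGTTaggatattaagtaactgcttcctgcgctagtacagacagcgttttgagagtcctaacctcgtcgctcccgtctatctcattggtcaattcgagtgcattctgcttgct
Nav2 intron, 185.1 kb, chr7:49093673-49093972: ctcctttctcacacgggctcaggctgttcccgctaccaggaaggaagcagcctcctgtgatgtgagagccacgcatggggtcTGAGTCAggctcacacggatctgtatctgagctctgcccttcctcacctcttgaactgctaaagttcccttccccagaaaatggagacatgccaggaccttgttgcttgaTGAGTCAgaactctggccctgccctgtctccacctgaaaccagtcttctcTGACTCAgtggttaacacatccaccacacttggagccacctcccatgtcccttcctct
Nav2 alternative start site, 337.4 kb, chr7:49245889-49246188: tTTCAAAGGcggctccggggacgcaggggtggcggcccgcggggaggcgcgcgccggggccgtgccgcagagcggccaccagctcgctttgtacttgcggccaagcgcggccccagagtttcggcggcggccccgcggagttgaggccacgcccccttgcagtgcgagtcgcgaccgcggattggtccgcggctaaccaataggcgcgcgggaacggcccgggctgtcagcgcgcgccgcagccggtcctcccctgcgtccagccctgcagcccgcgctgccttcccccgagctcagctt
The 492.1-kb stretch holds a κB and a TCF match, the 489.1-kb stretch a Runt match, and the 185.1-kb stretch 3 bZIP matches. The start-site stretch is GC-rich (75%, against 59%, 49.3% and 55% in the other sequences in the order shown) and holds a TCF match.

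In C57BL/6 cells the locus was most widely accessible in iNKT2 and iNKT17 cells, with 36 and 35 of the 45 regions at the accessible level, against 23 in iNKT1 cells. Over all regions of the table the groups hardly differed in this share (82.3% to 83.2%). The mean log2 level over the 45 regions was 2.45 and 2.35 in the C57BL/6 iNKT1 libraries, 3.34 and 3.24 in iNKT2 and 3.22 and 3.19 in iNKT17. The iNKT1 libraries lay below all others of this genotype. Of the 45 regions, 16 were accessible in all 3 C57BL/6 subsets and 12 in iNKT2 and iNKT17 but not in iNKT1 cells. Another 5 were accessible in iNKT2 alone, 5 in iNKT17 alone, 2 in iNKT1 alone, and 5 in iNKT1 together with a single other subset.

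**Figure D1:**
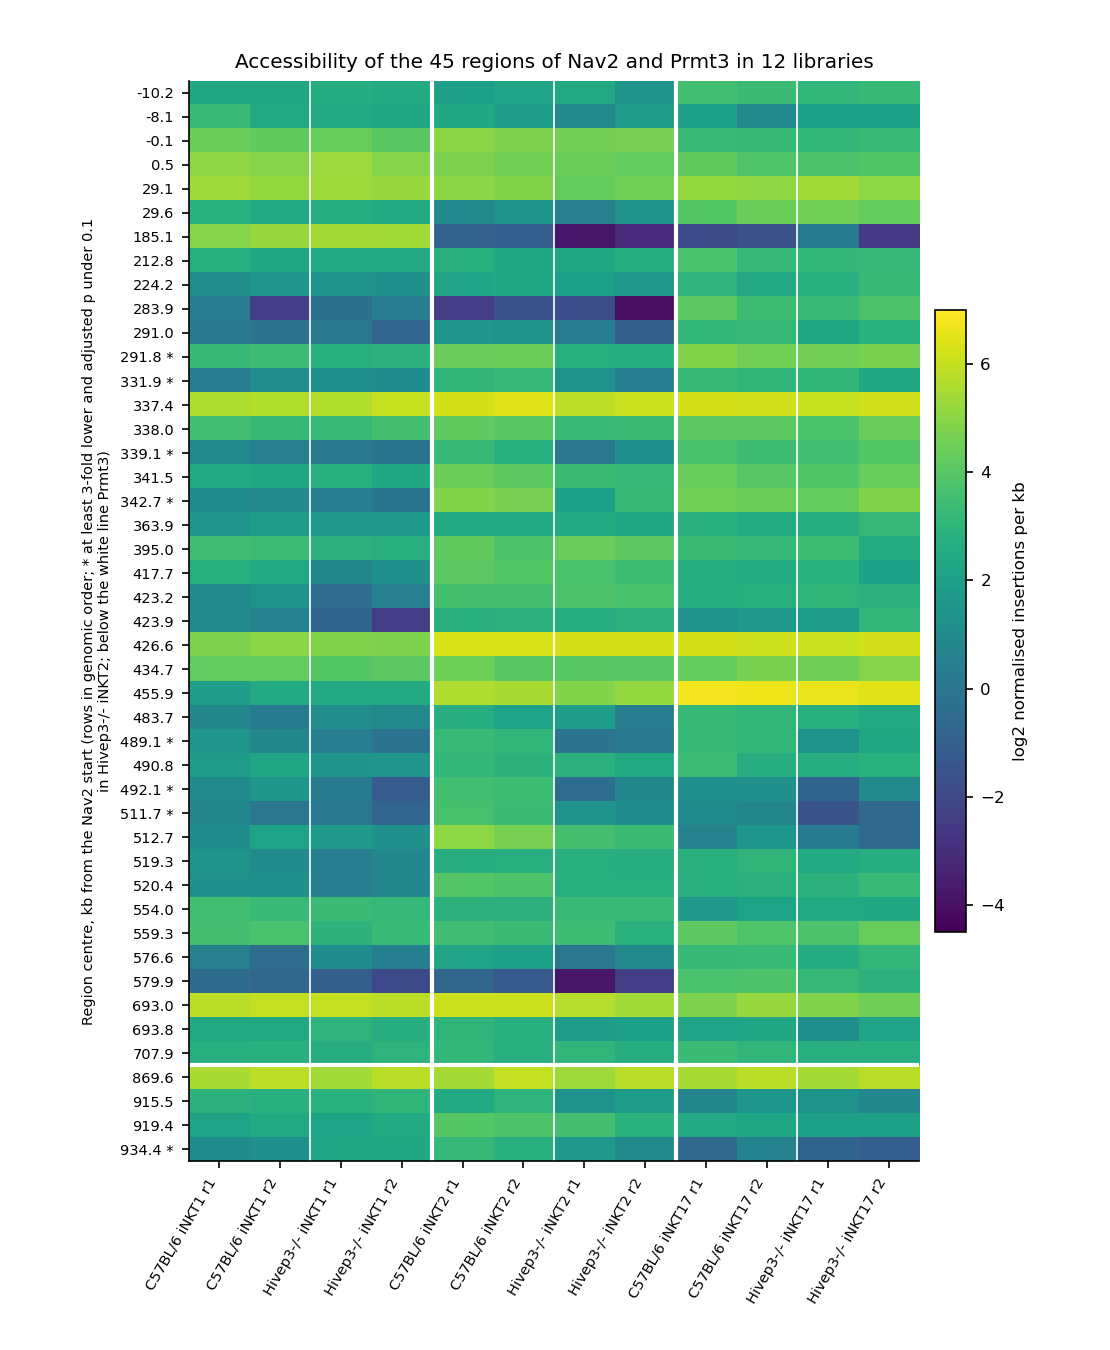
Log2 normalised insertions per kb (colour) of the 45 regions (rows, in genomic order, labelled by kb from the *Nav2* start) in the 12 libraries (columns); stars mark the 8 regions called lower in Hivep3-/- iNKT2 cells, and the white horizontal line parts *Nav2* from *Prmt3*. The columns of Hivep3-/- iNKT2 cells are darker than those of C57BL/6 iNKT2 cells at the starred rows, and the 185.1-kb row is bright in iNKT1 libraries alone.

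Several start-site regions were among the most accessible of the locus. The upstream *Nav2* start (0.5 kb, chr7:48908928-48909427) is annotated for a processed transcript, not for a protein-coding one. There the C57BL/6 libraries gave 5.11 and 4.91 in iNKT1, 4.72 and 4.58 in iNKT2 and 4.21 and 3.85 in iNKT17 cells. The Hivep3-/- libraries gave 5.26 and 4.89, 4.42 and 4.22, and 3.78 and 3.90 in the same order. No region lay at the protein-coding start at 50.4 kb. At the start 337.4 kb further in (chr7:49245872-49246371), which begins a protein-coding transcript, all 12 libraries lay between 5.59 and 6.42. This region was the highest of the locus on average, and its level in C57BL/6 iNKT1 cells (5.59 and 5.67) was below that in iNKT17 cells (6.25 and 6.16), with a log2 difference of −0.58 (limma, standard error 0.12 and adjusted p = 0.00117), less than the 3-fold needed for a call.

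The start site at 455.9 kb (chr7:49364414-49364913), annotated for a retained-intron transcript, set the subsets apart the most among these. C57BL/6 iNKT1 libraries were at 1.91 and 2.55, iNKT2 at 5.64 and 5.53 and iNKT17 at 6.81 and 6.72. The Hivep3-/- libraries followed the same order, with 2.46 and 2.49, 4.87 and 5.20, and 6.65 and 6.43. The groups of the 3 subsets did not overlap in either genotype. Between iNKT1 and iNKT17 cells the difference was −4.53 in C57BL/6 (standard error 0.19, adjusted p = 1.28e-09, limma) and −4.06 in Hivep3-/- cells (adjusted p = 2.75e-09). In C57BL/6 the region entered this comparison through its iNKT17 level alone, which favours a difference. On the linear scale it was at 108.8 in iNKT17 and 4.81 in iNKT1 cells, just below the accessible level.

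Over the locus, iNKT1 and iNKT17 cells of C57BL/6 mice could be compared at 40 regions, of which 14 were differentially accessible, that is at least 3-fold apart with an adjusted p under 0.1. Of these, 12 were lower and 2 higher in iNKT1 cells. Among all tested regions, 20.5% were called in this comparison, and 10.8% as lower in iNKT1 cells. The median difference was −0.98, against 0.01 over all tested regions. In Hivep3-/- cells 16 of 40 regions were called, 14 lower and 2 higher in iNKT1 cells (19.3% and, for lower, 9.83% of all tested regions), with a median of −1.24 against 0.02. In the main fit, both genotypes called 10 of the same regions, and all 20 regions called in either had a difference of the same sign in both. How often this holds over all tested regions was not counted, so it is not read as particular to the locus. Of the regions called lower in C57BL/6, only the one at 341.5 kb reached the accessible level in iNKT1 cells (5.18 on the linear scale). In Hivep3-/- cells only those at 29.6, 291.8 and 455.9 kb did. The others entered through their iNKT17 level alone, and those called higher through their iNKT1 level alone, which favours a difference. With a mean of at least 5 required over all 12 libraries, 5 were called lower and 1 higher in C57BL/6, and 8 and 2 in Hivep3-/- cells.

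The largest difference between these subsets ran the other way. The intronic region at 185.1 kb (chr7:49093573-49094072), the one with 3 bZIP matches in its centre, was at 4.91 and 5.24 in C57BL/6 iNKT1 libraries and at 5.45 and 5.41 in Hivep3-/- iNKT1 libraries. All other libraries were at or below 0.19, and 2 of them (Hivep3-/- iNKT2 replicate 1 and Hivep3-/- iNKT17 replicate 2) were at the lowest value of their library. The iNKT1 level exceeded the iNKT17 level by 6.85 in C57BL/6 (standard error 0.71, adjusted p = 2.63e-06, limma) and by 6.62 in Hivep3-/- cells (adjusted p = 3.96e-06). The region entered both comparisons through its iNKT1 level alone, which favours a difference. On the linear scale it was at 33.88 and 43.06 in C57BL/6 and Hivep3-/- iNKT1 cells, against 0.29 and 0.65 in iNKT17 cells. The other region higher in iNKT1 cells lay in a *Prmt3* intron (915.5 kb, chr7:49823968-49824467), with 2.91 and 2.74 in C57BL/6 iNKT1 against 0.75 and 1.54 in iNKT17 libraries. It too entered through its iNKT1 level alone (7.11 against 2.3 on the linear scale in C57BL/6).

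Regions closed in iNKT1 and open in iNKT17 cells were spread along the *Nav2* introns. Those described here entered the comparison through their iNKT17 level alone, which favours a difference. At 283.9 kb (chr7:49192334-49192833) C57BL/6 iNKT17 libraries were at 4.12 and 3.41 and iNKT1 libraries at 0.36 and −2.39, a difference of −4.78 (standard error 0.88, adjusted p = 0.000412, limma). It was called without either iNKT1 library, but its size ranged from −6.16 without C57BL/6 iNKT1 replicate 1 to −3.41 without replicate 2. The iNKT2 libraries were between −4.05 and −1.59 there, which makes this region one of the 5 accessible in iNKT17 cells alone. Another is at 579.9 kb (chr7:49488391-49488890), with 3.68 and 3.78 in C57BL/6 iNKT17 and −0.42 and −0.67 in iNKT1 libraries (difference −4.27, adjusted p = 4.62e-05). The region at 342.7 kb (chr7:49251185-49251684) was at 4.54 and 4.43 in iNKT17 and at 1.11 and 0.91 in iNKT1 libraries of C57BL/6 mice (difference −3.48, adjusted p = 1.41e-06), and it was open in C57BL/6 iNKT2 cells as well (4.86 and 4.63).

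**Figure D2:**
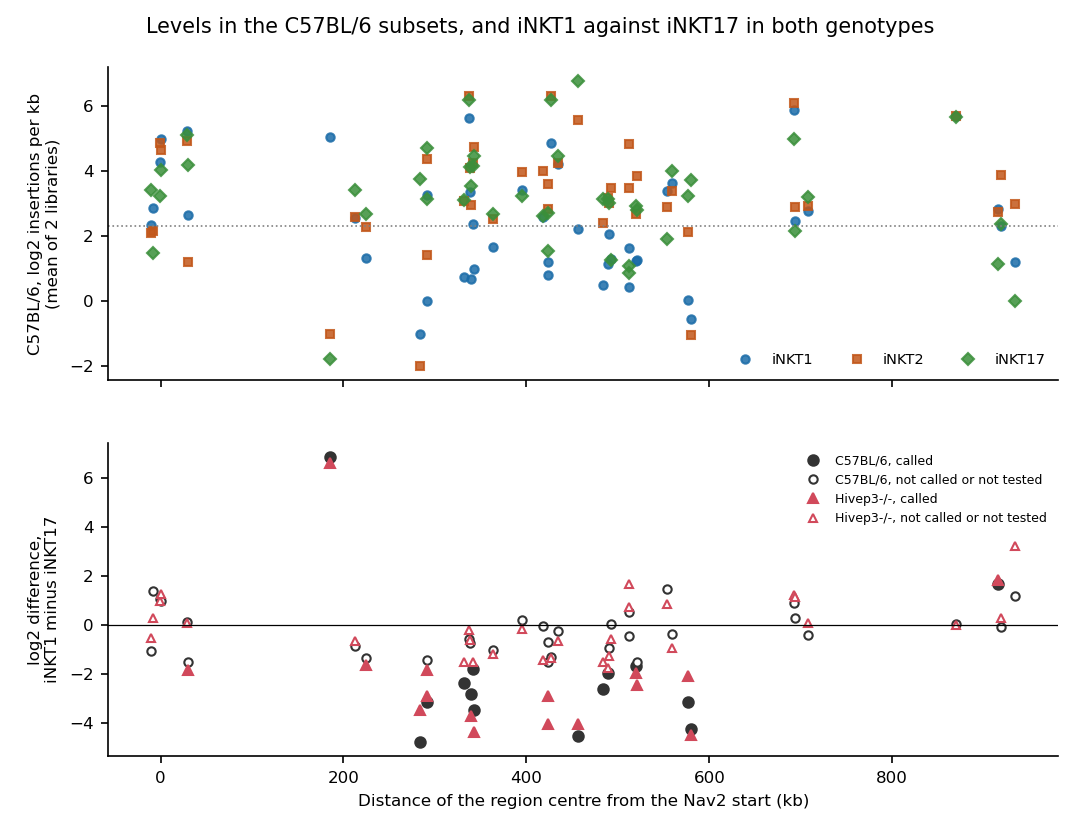
Upper panel, mean log2 insertions per kb of 2 C57BL/6 libraries for each region against its distance from the *Nav2* start in kb, by subset, with the accessible level dotted. Lower panel, log2 difference between iNKT1 and iNKT17 cells in C57BL/6 (circles) and Hivep3-/- (triangles), filled where called; apart from the 185.1-kb region (6.85 and 6.62) and the *Prmt3* intron at 915.5 kb, all filled points lie below 0.

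In Hivep3-/- iNKT2 cells the locus was less widely accessible than in C57BL/6 iNKT2 cells, which is what it was picked for. The accessible regions numbered 27 instead of 36, so that 9 regions were accessible in C57BL/6 alone and 0 in Hivep3-/- alone. The mean over the 45 regions was 3.34 and 3.24 in the C57BL/6 and 2.38 and 2.36 in the Hivep3-/- libraries, which puts the Hivep3-/- iNKT2 libraries next to the iNKT1 libraries. Of 36 regions above the filter, 32 had a negative change, with a median of −0.53 against −0.00 over all tested regions. Differentially accessible were 8, all lower in Hivep3-/- cells, where 1.68% of all tested regions were called and 1.2% were called lower. In 26 of the 36, both Hivep3-/- libraries lay below both C57BL/6 libraries, which held for 26.4% of all tested regions. Since the choice of the locus used these values, nothing is read from these counts.

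The 8 regions lay in 4 separate stretches, none of which covers the upstream *Nav2* start. The largest difference, −3.27 on the log2 scale or 9.64-fold, was in the intron at 492.1 kb (chr7:49400553-49401052), with 3.52 and 3.45 in C57BL/6 and −0.40 and 0.84 in Hivep3-/- iNKT2 libraries. Next to it, at 489.1 kb (chr7:49397611-49398110), where the region reaches into a *Nav2* exon, the values were 3.23 and 3.13 against −0.13 and 0.10, a change of −3.20 or 9.16-fold. Another region of this stretch, over an exon at 511.7 kb (chr7:49420181-49420680), went from 3.65 and 3.35 to 1.38 and 1.10, a change of −2.26. The genotypes did not overlap at any of these.

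The second stretch lay around the 337.4-kb start site. At 339.1 kb (chr7:49247584-49248083) the libraries were at 3.22 and 2.69 in C57BL/6 and 0.06 and 1.27 in Hivep3-/- iNKT2 cells, a change of −2.29. At 331.9 kb (chr7:49240411-49240910) the change was −2.18 (3.04 and 3.14 to 1.38 and 0.44), and at 342.7 kb it was −2.13 (4.86 and 4.63 to 2.03 and 3.19). Between these regions, the start site itself changed by only −0.38, from 6.24 and 6.42 to 5.84 and 6.06. Of the 5 other regions within 6 kb of it, the 3 called ones were 4.38-fold to 4.89-fold lower, and those at 338.0 kb and 341.5 kb were 1.76-fold and 2.04-fold lower.

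The other 2 called regions were an intronic one at 291.8 kb (chr7:49200222-49200721), which went from 4.35 and 4.40 to 2.72 and 2.65 (−1.69), and one in a *Prmt3* intron at 934.4 kb (chr7:49842903-49843402), which went from 3.16 and 2.81 to 1.66 and 0.94 (also −1.69). Of the 8, only the regions at 291.8 kb and 342.7 kb remained at the accessible level in Hivep3-/- iNKT2 cells. The region at 185.1 kb had a lower mean as well (−0.92 and −1.06 against −3.79 and −3.06), but neither genotype reached the accessible level, with 1 library at its lowest value.

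Other parts of the locus stayed close to their C57BL/6 level in iNKT2 cells. The 5 regions between 417.7 and 434.7 kb averaged 4.25 and 4.17 in C57BL/6 and 4.10 and 4.05 in Hivep3-/- libraries. They include the region at 426.6 kb (chr7:49335028-49335527), at 6.32 and 6.32 against 6.24 and 6.26. The largest differences in favour of Hivep3-/- cells were small. They were 0.37 in the intron at 554.0 kb (chr7:49462434-49462933, 2.90 and 2.87 against 3.23 and 3.29) and 0.27 at the start site of 395.0 kb (chr7:49303500-49303999, 4.19 and 3.80 against 4.36 and 4.16), where the libraries overlapped.

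**Figure D3:**
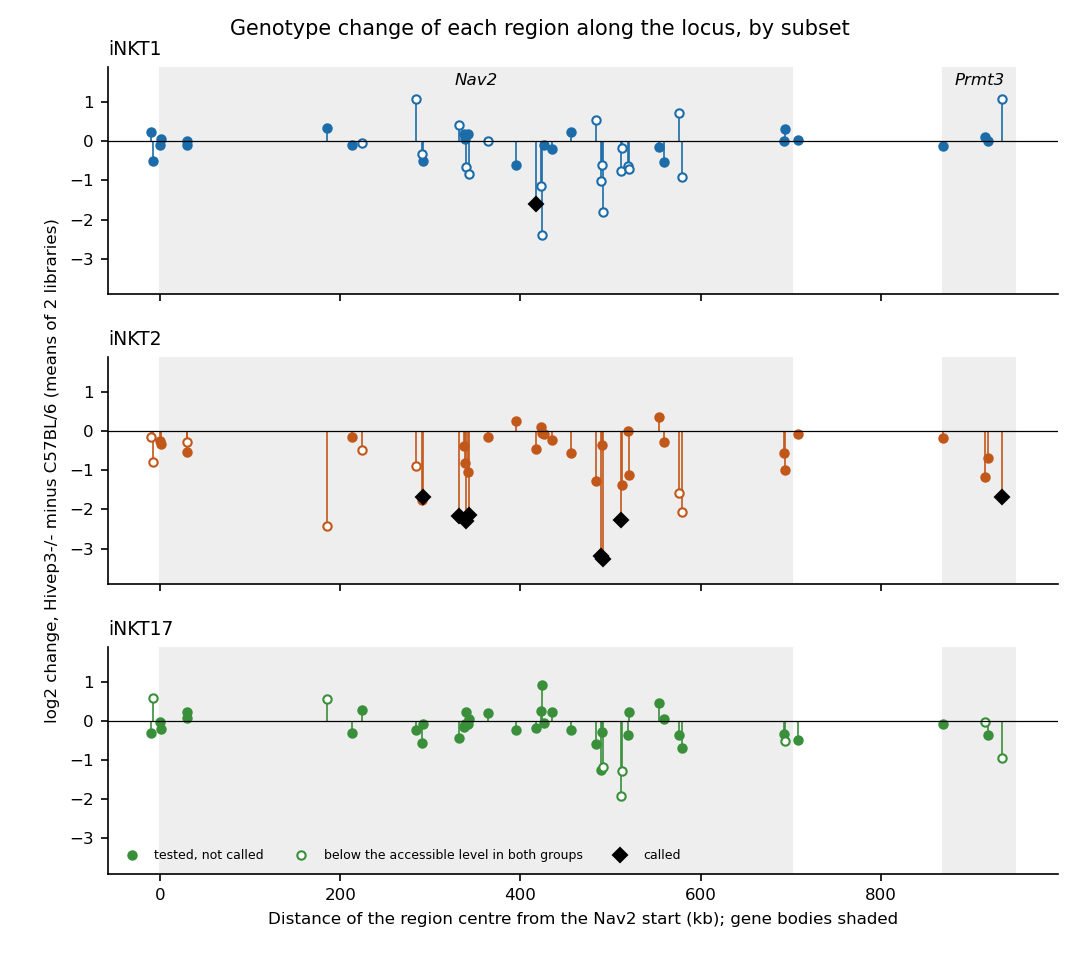
Log2 change between genotypes (Hivep3-/- minus C57BL/6, means of 2 libraries each) of each region against its distance from the *Nav2* start in kb, in iNKT1, iNKT2 and iNKT17 cells, with gene bodies shaded. Open circles are below the accessible level in both groups; black diamonds are called, 1 in iNKT1 (417.7 kb), 8 in iNKT2 (down to −3.27 at 492.1 kb) and 0 in iNKT17 cells.

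Other measures moved together with the iNKT2 values. The number of distinct values up to the median was 219 and 159 in C57BL/6 and 91 and 118 in Hivep3-/- iNKT2 libraries. The summed start-site level of the 5 iNKT1 markers was 265.6–275.4 in C57BL/6 and 220.1–241.3 in Hivep3-/- iNKT2 libraries, and that of the iNKT2 markers was 244.8–268.8 and 240.1–241.6. The iNKT1 markers did not move alike. On the log2 scale *Ifng* was at 4.81 and 2.73 in the C57BL/6 and Hivep3-/- means, *Xcl1* at 3.99 and 2.97, *Tbx21* at 4.58 and 4.28 and *Il2rb* at 7.62 and 7.56, while *Klrb1c* was higher in Hivep3-/- cells (2.48 and 3.00). Among the iNKT2 markers *Izumo1r* (6.36 and 6.03), *Ccr9* (3.33 and 2.87) and *Gata3* (6.51 and 6.49) had lower means in Hivep3-/- cells, and *Il4* (5.73 and 5.78) and *Slamf6* (4.27 and 4.54) higher ones. Their part in the result was not tested. The iNKT1 libraries themselves were below the accessible level at 7 of the 8 called regions. With a constant of 5 added before the logarithm 0 regions were called, and with a mean of at least 5 required over all 12 libraries 4 were, 3 of them among the 8.

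In iNKT1 cells, whose libraries were not used to choose the locus, 25 regions could be tested. A single region was called, the intronic one at 417.7 kb (chr7:49326129-49326628), with 2.75 and 2.45 in C57BL/6 and 0.77 and 1.25 in Hivep3-/- libraries. The change was −1.59 (standard error 0.29, adjusted p = 0.0051, limma), just past the 3-fold threshold, and the genotypes did not overlap. The region entered this test through its C57BL/6 level alone (6.09 on the linear scale, against 2.05 in Hivep3-/- cells), which favours a difference. It was also called with a mean of at least 5 required over all 12 libraries. Among all tested regions, 1.15% were called and 0.264% were called lower in Hivep3-/- iNKT1 cells. The same region was at 4.09 and 3.92 against 3.72 and 3.43 in iNKT2 cells, and in iNKT17 cells at 2.67 and 2.59 against 2.84 and 2.08 (change −0.17, adjusted p = 0.845). Without C57BL/6 iNKT1 replicate 1 the change was −1.44 (adjusted p = 0.0662) and without Hivep3-/- iNKT1 replicate 1 it was −1.35 (adjusted p = 0.0633), both short of 3-fold.

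Next to it lay a pair of regions that were lower in Hivep3-/- iNKT1 libraries too, but neither genotype reached the accessible level there in this subset, so they were not among the regions tested. At 423.2 kb (chr7:49331634-49332133) the iNKT1 libraries gave 1.02 and 1.39 in C57BL/6 and −0.41 and 0.51 in Hivep3-/- mice. At 423.9 kb (chr7:49332388-49332887) they gave 1.02 and 0.63 against −0.78 and −2.37. With no filter on low values, the change of −2.40 at 423.9 kb was called (adjusted p = 0.0122, limma), and that of −1.15 at 423.2 kb was short of 3-fold (adjusted p = 0.0361). In iNKT2 cells both of these regions differed by at most 0.10 between the genotype means.

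The remaining tested regions of the locus did not differ beyond the threshold in iNKT1 cells. The median over the 25 regions was 0.01, against −0.02 over all tested regions, 12 of the 25 changes were negative, and 4 had an unadjusted p under 0.05. Both Hivep3-/- libraries were below both C57BL/6 libraries at 6 of them, where 28% of all tested regions showed this. After 417.7 kb, the largest changes were −0.61 at the start site of 395.0 kb (3.48 and 3.39 to 2.91 and 2.75, standard error 0.25, adjusted p = 0.207) and −0.54 in the intron at 559.3 kb (chr7:49467783-49468282, 3.60 and 3.69 to 2.92 and 3.29, adjusted p = 0.265). Of the 8 regions called in iNKT2 cells only the one at 291.8 kb could be tested, with 3.19 and 3.38 in C57BL/6 and 2.73 and 2.87 in Hivep3-/- iNKT1 libraries (change −0.49, adjusted p = 0.135). At the others neither genotype was accessible.

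In iNKT17 cells 37 regions could be tested and 0 were called by limma, where 0.271% of all tested regions were. The unadjusted p was under 0.05 at 1 of them. The median change was −0.14, against −0.01 over all tested regions, 25 of the 37 changes were negative, and both Hivep3-/- libraries lay below both C57BL/6 libraries at 13, against 22.8% of all tested regions. The most negative change was at 489.1 kb, with 3.19 and 3.10 in C57BL/6 and 1.41 and 2.39 in Hivep3-/- libraries. The region entered the test through its C57BL/6 level alone (8.86 on the linear scale, against 3.96 in Hivep3-/- cells), which favours a difference. The genotypes did not overlap there, and the change of −1.24 (standard error 0.39) had an adjusted p of 0.125 (limma). It rested on single libraries, being −1.73 and called without Hivep3-/- iNKT17 replicate 2 (adjusted p = 0.0873) and −0.75 without replicate 1 of that group (adjusted p = 0.402).

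Of the 8 regions called in iNKT2 cells, 5 were accessible in iNKT17 cells and could be tested. At 4 of these the change was between −0.42 and 0.23, with an adjusted p of 0.664 or more (limma). At 339.1 kb the iNKT17 libraries were at 3.65 and 3.45 in C57BL/6 and 3.55 and 3.99 in Hivep3-/- mice (change 0.23, standard error 0.39, adjusted p = 0.853), and at 342.7 kb at 4.54 and 4.43 against 4.27 and 4.84 (change 0.06, adjusted p = 0.96). Whether the change in iNKT2 cells differs from that in iNKT17 cells was not tested, because the iNKT2 values chose the locus. The regions at 492.1 kb (1.29 and 1.25 against −0.78 and 0.97) and 511.7 kb (1.03 and 0.74 against −1.52 and −0.55) were lower in Hivep3-/- iNKT17 libraries as well, but accessible in neither genotype.

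**Figure D4:**
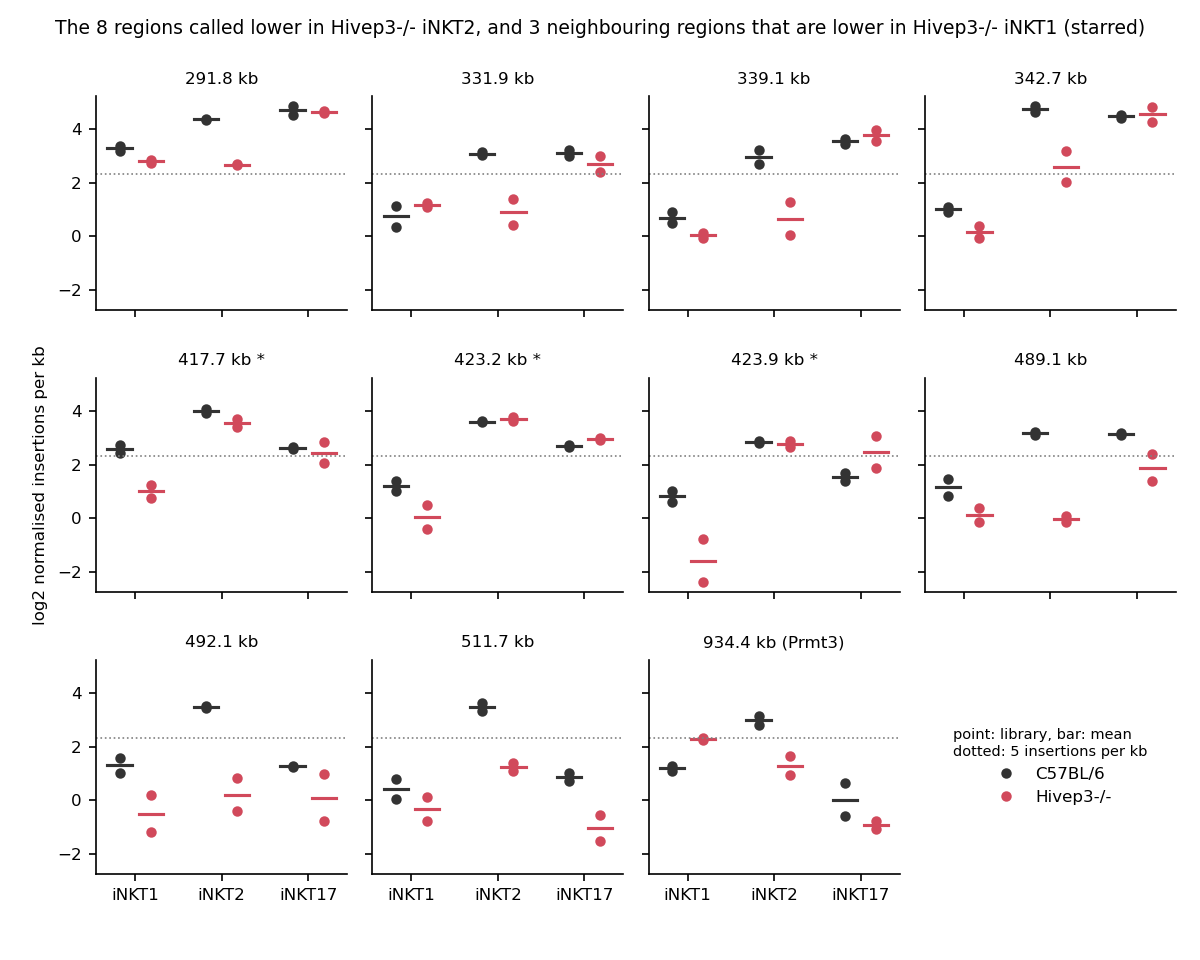
Log2 normalised insertions per kb in each library (points, with the mean of 2 as a bar) of the 8 regions called lower in Hivep3-/- iNKT2 cells and of 3 neighbouring regions with lower values in Hivep3-/- iNKT1 cells (starred, 417.7 to 423.9 kb), by subset and genotype. At 339.1 and 342.7 kb Hivep3-/- cells are below C57BL/6 in iNKT2 and level with them in iNKT17; at 489.1 kb they are below in all 3 subsets.

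The largest positive change among tested regions in iNKT17 cells was at 423.9 kb, with 1.40 and 1.69 in C57BL/6 and 1.88 and 3.06 in Hivep3-/- libraries (0.93, standard error 0.50, adjusted p = 0.41). The iNKT1 change minus the iNKT17 change was −3.32 there (standard error 0.71, adjusted p = 0.0345, limma), past the same thresholds, which 1.42% of all tested regions passed and none of the other 40 tested regions of the locus. The region entered this test through its Hivep3-/- iNKT17 level alone (6.01 on the linear scale, against 2.93 in C57BL/6 iNKT17 and 1.78 and 0.39 in C57BL/6 and Hivep3-/- iNKT1 cells), a choice that favours a difference, so the value is given without reading a result from it. Leaving out C57BL/6 iNKT1 replicate 1, Hivep3-/- iNKT1 replicate 2 or C57BL/6 iNKT17 replicate 1 ended the call (adjusted p = 0.123, 0.118 and 0.11, with differences of −3.13, −2.52 and −3.18), and without Hivep3-/- iNKT17 replicate 2 the region was not accessible in any of the 4 groups compared. The largest change with a negative sign in iNKT17 cells after 489.1 kb was −0.69 at 579.9 kb (3.68 and 3.78 to 3.16 and 2.91, standard error 0.61, adjusted p = 0.657).

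Among the 4 *Prmt3* regions, the promoter had near-equal levels in all groups while the intronic regions differed more. The promoter (869.6 kb, chr7:49778073-49778572) was at 5.54 and 5.87 in C57BL/6 and 5.41 and 5.77 in Hivep3-/- iNKT1 cells, at 5.47 and 5.96 against 5.31 and 5.78 in iNKT2, and at 5.49 and 5.82 against 5.45 and 5.75 in iNKT17 cells. The genotypes overlapped in each subset, although the Hivep3-/- library was below the C57BL/6 library of the same number in 6 of 6 pairs. The labels do not say what a number shares between genotypes. The pairs are not independent and include the iNKT2 libraries that chose the locus, so nothing is read from this count. The changes were −0.11 in iNKT1 (standard error 0.21, adjusted p = 0.878, limma) and −0.06 in iNKT17 cells (adjusted p = 0.94), and −0.17 in iNKT2 cells. With the replicate number as a block the adjusted p was 0.515 in iNKT1 and 0.778 in iNKT17 cells. The intron at 915.5 kb was at 2.91 and 2.74 against 2.84 and 3.04 in iNKT1 cells (change 0.11, adjusted p = 0.939) and at 2.52 and 2.98 against 1.38 and 1.80 in iNKT2 cells. At 934.4 kb the Hivep3-/- means were lower in iNKT2 cells, as given above, but higher in iNKT1 cells (1.11 and 1.28 against 2.24 and 2.34), where neither genotype was accessible. The region at 919.4 kb (chr7:49827875-49828374) changed by 0.02 in iNKT1 (adjusted p = 0.991), by −0.67 in iNKT2 and by −0.35 in iNKT17 cells (adjusted p = 0.618).

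The genes on either side gave 0 calls. *Zdhhc13*, *E2f8*, *Dbx1*, *Htatip2* and *Slc6a5* had 10 regions that are not part of the locus, and none of the 10 was called by limma in iNKT1, iNKT2 or iNKT17 cells. Over all tested regions 1.15%, 1.68% and 0.271% were called in these subsets, so 0 calls among 10 regions do not set the neighbours apart. At an unadjusted p under 0.05 there were 0 in iNKT1 and 1 in iNKT17 cells. Their median changes were 0.03, 0.02 and 0.08, and in iNKT2 cells they ranged from −0.46 to 0.32. *Csrp3*, *Nell1* and *Ano5* had 0 regions. The nearest region before the locus (chr7:48881462-48881961, at the *E2f8* start) changed by −0.07 in iNKT2 cells, and the outermost one inside it (−10.2 kb, chr7:48898302-48898801) by −0.14. At the other end, the last *Prmt3* region inside was the one at 934.4 kb (−1.69), and the first beyond it lay 65091 bp past the gene, in *Slc6a5* (chr7:49923356-49923855, −0.46).

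Related genes elsewhere in the genome were looked at in the same way. Of the other neuron navigators, *Nav1* had 10 regions, with 0 called in any subset and median changes of 0.24 in iNKT1 cells, 0.10 in iNKT2 cells and −0.06 in iNKT17 cells, and *Nav3* had 0 regions. Of the *Nav1* regions 10, 7 and 8 were tested in iNKT1, iNKT2 and iNKT17 cells. Given the small shares called over all tested regions, nothing is read from the 0 calls. In iNKT1 and iNKT17 cells 1 *Nav1* region each had an unadjusted p under 0.05. Between C57BL/6 iNKT1 and iNKT17 cells, 2 of its 10 tested regions were called (20%, near the 20.5% of all tested regions), both higher in iNKT1 cells. The 8 other protein arginine methyltransferase genes listed (*Prmt1*, *Prmt2*, *Carm1* and *Prmt5* to *Prmt9*) had 26 regions. In iNKT2 cells 1 of 22 tested was called, in *Prmt7* (−3.61), which is 4.55% against 1.68% of all tested regions. In iNKT1 and iNKT17 cells 0 of 20 and 0 of 22 were, against 1.15% and 0.271% of all tested regions. Their median changes in iNKT1, iNKT2 and iNKT17 cells were −0.01, −0.11 and −0.10, and the regions with an unadjusted p under 0.05 numbered 0 in iNKT1 and 4 in iNKT17 cells.

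The loci whose mean level over their regions was most like that of *Nav2* over the 12 libraries were *Sox13* (Pearson's r = 0.979), *Xkr6* (0.969), *Sept8* (0.967), *Soat1* (0.945) and *Gm9837* (0.928), out of 5719 protein-coding loci with at least 5 regions. The libraries share their normalization and fall into subsets, so these values are a description. *Sox13*, which encodes an HMG-box transcription factor, had 5 regions with a mean of 1.58 in C57BL/6 and 1.04 in Hivep3-/- iNKT1, 2.75 and 1.20 in iNKT2, and 2.91 and 2.68 in iNKT17 cells.

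Base composition set the regions of the locus little apart, with a median GC content of 50.2%, against 50.0% over all regions and 48.8% in the 8 regions called in iNKT2 cells. Of the 8 motifs searched on both strands of the 500-base regions, the Runt motif (AACCACA) was found in 13 of the 45 regions (28.9%) and in 6 of the 8 called in iNKT2 cells, against 17.4% of all regions of the table. TCF (NTCAAAGG) matches were in 6 regions (13.3%) and in 2 of the 8, against 9.53% of all. bZIP (TGANTCA) matches were in 8 (17.8%) and in 2 of the 8, against 15.9%. The κB motif was in 2 regions (4.44%) and 1 of the 8, the 492.1-kb region printed above, against 8.6% of all. NFAT (NTTTTCCA) and T-box (AGGTGTGA) matches were in 2 regions each, ETS (ACNGGAAGT) in 3 and Egr (GCGTGGGNG) in 1, against 10%, 2.91%, 5.53% and 2.63% of all regions. Of these, only the Egr match, at 342.7 kb, was in a region called in iNKT2 cells. The region called in iNKT1 cells, at 417.7 kb, held none of the 8 motifs. The regions called in iNKT2 cells were picked by the values that chose the locus. Only 1 of them lay within 1000 bp of a start site, against 22.2% of the 45 regions and 38.1% of all regions. The motif and start-site shares among all regions called lower in iNKT2 cells were not counted, so no enrichment or depletion is read from these numbers.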

How the data were processed

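Per the labels and the study's methods, reads were trimmed to 50 bp with Trimmomatic (0.39 in the submitters' processing notes), mapped to mm10 with the ENCODE ATAC-seq pipeline, and peaks were merged by chromVAR to 500-bp regions in which transposase insertions were counted. The deposited values are log2 insertions per kb after voom normalization by the authors, with upper quantiles shared between libraries. Counts were not used here, so depth is unknown. All 12 columns were mapped to a library.

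Group means of the 12 libraries were fitted over all 63309 regions with limma 3.58.1 (R 4.3.3; eBayes with a variance trend, residual degrees of freedom 6, prior 7.17). A region entered a comparison if either group's linear mean reached 5. Benjamini-Hochberg adjustment ran over all regions entered, and calls needed an adjusted p under 0.1 and 3-fold. The fit was tested on simulated data. The members and gene lists were chosen with earlier results of these data known. Regions described with all libraries are the start-site regions, the largest differences of each comparison and those called. The centre of the start-site region overlaps an annotated transcript, so the 300 bases before that transcript are printed. Genes are from GENCODE vM21, and motif windows from GRCm38.p6 (pysam 0.24.0, Python 3.11.15).

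The 3 subsets of a genotype and number are taken to share a pool of cells. Deviations of same-numbered libraries from their group means correlated at 0.12 to 0.167 between subsets of a genotype and at 0.113 to 0.172 between genotypes within a subset. Libraries that shared the number but neither genotype nor subset correlated at 0.0912 to 0.174.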

Additional observations from a re-analysis of the deposited data

Results flagged for a closer look

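At the *Nav2* intron at 423.9 kb the iNKT1 change minus the iNKT17 change, an interaction term, was −3.32 on the log2 scale (limma, adjusted p = 0.0345). The region entered the test through its Hivep3-/- iNKT17 level alone, which favours such a difference, and the iNKT1 values are below the accessible level. The call was lost without C57BL/6 iNKT1 replicate 1, Hivep3-/- iNKT1 replicate 2 or C57BL/6 iNKT17 replicate 1 (adjusted p = 0.123, 0.118 and 0.11), and the region was not tested without Hivep3-/- iNKT17 replicate 2. No difference between subsets is claimed from it.

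At 4 other regions every Hivep3-/- library lay on one side of both C57BL/6 libraries in a subset and on the opposite side in another, counting only subsets where the region was accessible in either genotype. Another 5 (−8.1, 185.1, 423.2, 483.7 and 934.4 kb) did so with at least 1 of the subsets below that level. How many regions of the whole table do so was not counted, so nothing is read from these numbers. The 4 differences between subsets were seen without a test or, where iNKT1 and iNKT17 cells were compared, without passing it. At −10.2 kb the change was 0.23 in iNKT1 and −0.31 in iNKT17 cells (difference 0.54, adjusted p = 0.637). At the 337.4-kb start site it was 0.20 in iNKT1 cells, against −0.38 in iNKT2 (not tested) and −0.14 in iNKT17 cells (difference 0.34, adjusted p = 0.398). At 693.8 kb it was 0.33 in iNKT1 and −1.0 in iNKT2 cells (not tested). At 520.4 kb it was −1.12 in iNKT2 and 0.23 in iNKT17 cells (not tested).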

How the results depend on the processing

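Every region called between genotypes, in each setting run, was lower in Hivep3-/- cells. In iNKT1 cells (1 region) the count was 2 with no filter on low values (417.7 and 423.9 kb), and 0 with a constant of 1 or 5 added before the logarithm, with renewed quantile normalization, or with values centred by GC content, with or without the replicate block. In the last 3 settings the change at 417.7 kb, −1.59 as reported, fell just short of 3-fold with an adjusted p (limma) under the threshold (−1.55 with 0.00641 after quantile normalization, −1.58 with 0.00366 after GC centring and −1.58 with 0.000852 with the block); leaving out single libraries gave 0 to 1. In iNKT17 cells (0 regions) it was 1 with no filter (511.7 kb), and 0 to 1 with single libraries left out. In iNKT2 cells (8 regions) it was 12 with no filter, 6 with a constant of 1, 0 with a constant of 5, 13 at 2-fold and 19 with no fold threshold. It was 4 when the mean over the 12 libraries had to reach 5, of which 3 were among the 8 and the other was the region at 185.1 kb. For the difference between the iNKT1 and iNKT17 changes (1 region) it was 0 with that filter and with a constant of 5, and 0 to 1 with single libraries left out, where the region called was the one at 423.2 kb without Hivep3-/- iNKT1 replicate 2 and the one at 417.7 kb without Hivep3-/- iNKT17 replicate 2. Between iNKT1 and iNKT17 cells, the 14 regions of C57BL/6 and the 16 of Hivep3-/- became 6 and 10 with that filter, 5 and 4 with a constant of 5, 25 and 26 at 2-fold, and 31 and 32 with no fold threshold. The median changes in iNKT1, iNKT2 and iNKT17 cells stayed within the spread between libraries (−0.09 to 0.02, −0.60 to −0.34 and −0.20 to 0.00). The replicate block, by number or by pool, changed no call: 1 region in iNKT1, 8 in iNKT2, 0 in iNKT17 cells, 14 and 16 between subsets. The cause of these shifts was not tested. With 2 libraries per group, a small change at a low value was not detectable.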
